A study of Mus musculus with 23 samples.

Results

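The set described here holds 38 genes of proteases that work outside the cell or at its surface, with their inhibitors, out of 35523 genes measured. Its members are set by name and role, and the set was picked with earlier results of these data known. They are 14 matrix metalloproteinases, 11 ADAMTS proteases, 4 ADAM proteases, the 4 TIMP inhibitors, and 5 genes of the plasminogen system and related serine proteases. All 38 were found in the tables.

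The mouse study grew pancreatic stellate cells (PSCs), which can turn into the fibroblasts of a tumour, with pancreatic tumour organoids. The co-cultures stood in Matrigel, a basement membrane gel, for 3.5 days. The medium is labelled reduced/control without further detail, and flow sorting then separated a PSC fraction from an organoid fraction. PSCs were wild type (WT) for Egfr, the epidermal growth factor receptor, or knockout (KO). The groups were 4 WT PSC libraries, 8 KO PSC libraries, 4 libraries of organoids grown with WT PSCs and 7 of organoids grown with KO PSCs.

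PSCs came from 2 parents. PSC4 gave a WT line named Rosa and the KO lines A3 and B4, each grown with the organoid lines T6-LOH, T12-LOH and T69A. PSC5 gave a WT line, also named Rosa, and the KO lines C5 and D4, grown with T6-LOH only. The 8 KO PSC libraries therefore come from 4 KO lines, and each KO line is a single named line, which limits it as a model of the knockout. Each pair of a PSC line and an organoid line has 1 library per fraction, numbered as in its title, and T69A organoids with A3 were not analysed here. KO libraries of the same PSC parent and organoid line were set against the same WT library. Counts of KO libraries above or below their own WT library are therefore not independent. Nothing in the labels says whether libraries came from separate cultures or animals, so p-values measure only the spread between these libraries.

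Matrix metalloproteinases cut collagens and other proteins of the extracellular matrix, and TIMPs block them by binding to their active site. ADAMTS proteases are secreted and cut proteoglycans, procollagens and fibrillin, while ADAM proteases sit in the membrane and release growth factors and receptors from the cell surface. Plasminogen activators turn plasminogen into plasmin, which degrades fibrin and can activate metalloproteinases. In pancreatic tumours both the stroma and the tumour cells are known to make such enzymes.

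Library depth lay between 21823084 and 34828131 estimated counts in PSCs and between 23814409 and 34643087 in organoids. The targeted gene Egfr was at 287 to 427 CPM (counts after scaling to library size) in WT PSCs and at 59.7 to 352 CPM in KO PSCs, and was below its own co-culture's WT library in 8 of 8. The 10 fibroblast markers summed to 4619 to 9646 TPM (a level corrected for transcript length and scaled to the library) in PSCs and to 4.11 to 115 TPM in organoids. Epithelial markers summed to 12643 to 16994 TPM in organoids and to 32.3 to 186 TPM in PSCs. By the median over these markers, organoid RNA made up 0.0685 to 0.921% of PSC libraries and PSC RNA 0 to 0.164% of organoid libraries. The 10 immune markers summed to 7.82 to 17.3 TPM in PSCs and to 14.8 to 38.5 TPM in organoids. Of these Cd68 was at 6.08 to 15.2 TPM in PSCs, and Ptprc was at 0 in every PSC library and at 0.0267 to 0.735 TPM in organoids. In a sorted bulk fraction, fewer cells of a type and less RNA per cell cannot be told apart.

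The PSCs carried most of the set. Counted by mean TPM, 31 of 38 members were at 1 TPM or more in PSCs and 19 of 38 in organoids, and 7 against 2 reached 100 TPM. Over WT and KO PSC libraries together, the inhibitor Timp1 was the highest member with a mean of 1446 TPM. The stromelysin Mmp3 followed with 1114 TPM and the collagenase Mmp13 with 297 TPM. Timp2 (281 TPM), the membrane-anchored Mmp14 (259 TPM), Timp3 (169 TPM) and the tissue plasminogen activator Plat (168 TPM) came next. In WT PSCs alone Mmp3 stood above Timp1, with means of 1452 and 1165 TPM. The ranges of all neighbours in the joint order overlapped across libraries, and no pair of neighbours was tested. Within each PSC library Mmp3 still stood above Mmp13, most narrowly in library 25, at 26.4 against 23.9% of summed metalloproteinase TPM.

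In organoids the plasminogen system led. Plaur, the urokinase receptor, had a mean of 240.5 TPM, and Plat had 233 TPM. Mmp13 followed with 99.3 TPM, a mean that rests on T12-LOH because the range ran from 3.40 to 410 TPM. Mmp14 (86.9 TPM), the sheddase Adam10 (86.3 TPM), Timp2 (85.6 TPM) and urokinase, Plau (78.8 TPM), stood close together. Adam10 was the member closest to equal between the fractions, with a mean of 87.6 TPM in PSCs.

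**Figure D1:**
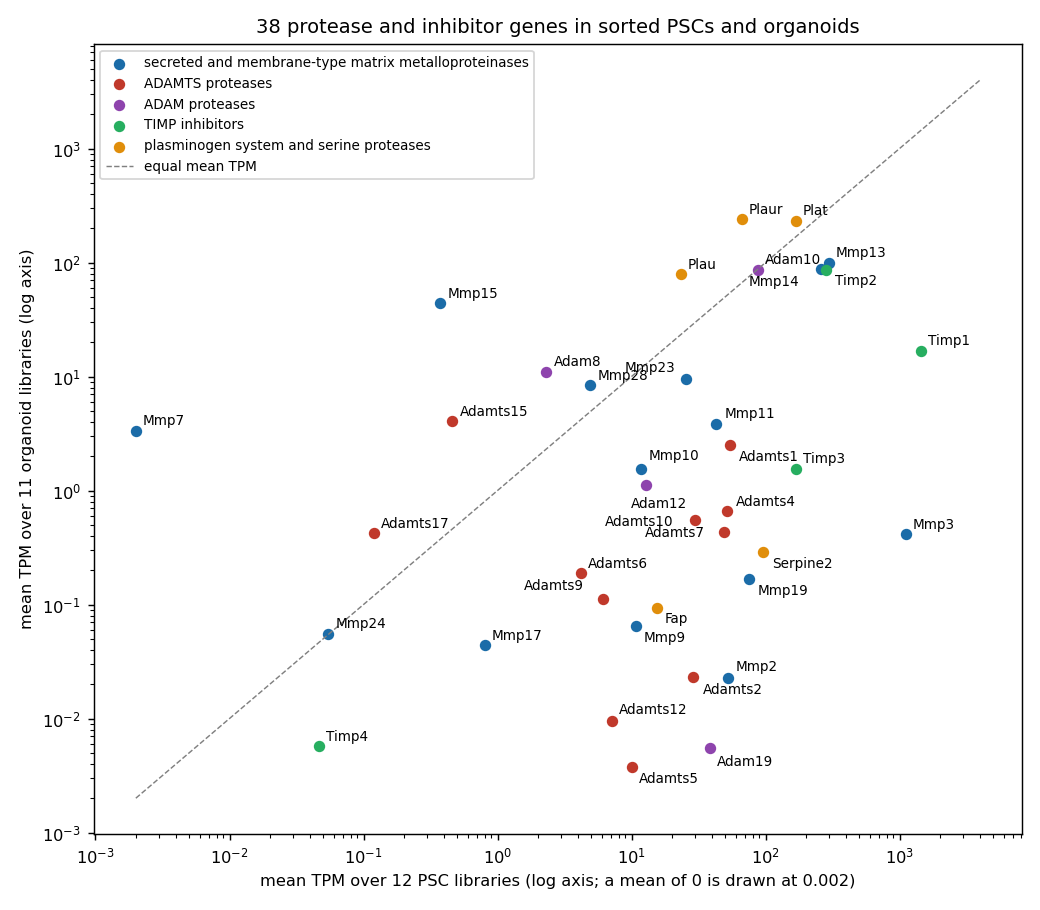
Mean TPM of each of the 38 members over 12 PSC libraries (x axis) and 11 organoid libraries (y axis), both on log axes, coloured by role, with a dashed line at equal levels. Most members lie below the line, Timp1 at 1446 TPM and Mmp3 at 1114 TPM lie far to the right, and Mmp7 lies at the left edge because it had 0 counts in every PSC library.

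The WT libraries of both fractions were set against each other within co-cultures. Of 35 members tested, 23 were higher in PSCs and 6 higher in organoids (edgeR's quasi-likelihood test, adjusted p under 0.05). Across all genes tested 56% were called, 28.8% higher in PSCs and 27.3% higher in organoids, and the median log2 difference was 4.57 over the members and -0.00169 over all genes. Timp4, Mmp24 and Mmp7 did not pass the filter on low counts. Left out one at a time, the 8 libraries cost 4 of the 29 calls in at least 1 fit, those of Adam12, Adamts1, Adamts15 and Mmp28.

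Several PSC members were close to nothing in organoids. Mmp2, a gelatinase, was at 59.0, 78.0, 52.9 and 33.2 TPM in the WT PSC libraries 20, 23, 17 and 26, while no organoid library held more than 3 counts of it. Adam19, a metalloprotease of mesenchymal cells, was at 33.3, 30.1, 34.8 and 40.7 TPM in the same PSC libraries and also had at most 3 counts in an organoid library. Adamts5, an aggrecan-cutting enzyme, was at 12.5, 3.77, 9.33 and 9.52 TPM in WT PSCs, with at most 2 counts in an organoid library. The fractions did not overlap for any of these 3. Adamts2, which trims procollagen, had 0 to 8 counts per organoid library, and Fap, the fibroblast activation protein, also 0 to 8.

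Mmp3 was at 1159, 1839, 2076 and 734 TPM in WT PSC libraries 20, 23, 17 and 26, and at 0.159, 1.02, 1.79 and 0.184 TPM in the organoids of those co-cultures (libraries 6, 10, 2 and 14). The PSC share of the organoid libraries alone would carry up to 3.40 TPM of Mmp3, above the highest organoid value of 1.79 TPM. Timp1 stood at 1182, 682, 1301 and 1495 TPM in PSCs and at 14.7, 21.2, 13.7 and 17.6 TPM in organoids, a log2 difference of 5.85 (SE 0.30, adjusted p = 9.66e-05 by edgeR). Timp3 differed by 6.63 and Timp2 by 1.89 on the log2 scale, so all 3 TIMPs tested were higher in PSCs. Of the ADAMTS members 9 of 11 and of the metalloproteinases 7 of 12 tested were higher there too.

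The 6 members higher in organoids were Mmp15, Adamts15, Adamts17, Adam8, Mmp28 and Plaur. Mmp15, a membrane-anchored metalloproteinase, was at 55.0, 20.7, 48.8 and 65.5 TPM in organoid libraries 6, 10, 2 and 14 and at 0.380, 0.0807, 0.735 and 0.186 TPM in the PSCs of the same co-cultures. Its log2 difference was -7.48 (SE 0.45, adjusted p = 0.000155 by edgeR). Plaur was at 216, 262, 250 and 178 TPM in organoids and 90.1, 81.6, 80.7 and 59.6 TPM in PSCs, and the fractions did not overlap. Mmp7, a small epithelial metalloproteinase, had 0 counts in all 12 PSC libraries together, where 3 counts would be 0.00948 CPM. In T6-LOH organoids it was at 3.79 CPM, at least 400-fold higher than that limit, which covers counting error only.

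The sum of metalloproteinase TPM over the sum of TIMP TPM described the balance of enzyme and inhibitor transcripts. In WT PSCs it was 1.02, 3.12, 1.78 and 0.636 in libraries 20, 23, 17 and 26. In the 3 libraries of line B4 it was 0.341, 0.398 and 0.415, below every other PSC library. Mmp3 alone held 57.8 to 68.0% of metalloproteinase TPM in WT PSCs and 10.6 to 26.4% in B4. In organoids the ratio ran from 1.48 to 4.63, with the 3 T12-LOH libraries highest, and each of the 7 libraries with KO PSCs lay below its own WT library.

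Mmp3, Mmp10 and Mmp13, whose levels in PSC4 lines differed with the organoid line beside them (below), lie close together on chromosome 9. Mmp3 and Mmp10 are stromelysins and Mmp13 is a collagenase, and AP-1 is a transcription factor known to act on metalloproteinase promoters. Their promoters are printed to show where the AP-1 motif TGANTCA lies, as the 250 bases before the RefSeq start (build GRCm38.p6, plus strand, not the submitters' build). The windows are chr9:7445572-7445821 for Mmp3, chr9:7502092-7502341 for Mmp10 and chr9:7272264-7272513 for Mmp13, and the motif is in capitals.
Mmp3: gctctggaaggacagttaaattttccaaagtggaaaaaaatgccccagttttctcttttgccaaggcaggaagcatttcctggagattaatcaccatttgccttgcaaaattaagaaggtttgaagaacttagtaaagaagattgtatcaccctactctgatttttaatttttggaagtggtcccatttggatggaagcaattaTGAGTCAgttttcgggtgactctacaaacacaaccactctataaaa
Mmp10: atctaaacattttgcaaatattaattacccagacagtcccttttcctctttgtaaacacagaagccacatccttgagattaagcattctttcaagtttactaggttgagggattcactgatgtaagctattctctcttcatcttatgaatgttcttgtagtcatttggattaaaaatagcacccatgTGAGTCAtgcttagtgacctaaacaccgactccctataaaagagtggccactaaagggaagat
Mmp13: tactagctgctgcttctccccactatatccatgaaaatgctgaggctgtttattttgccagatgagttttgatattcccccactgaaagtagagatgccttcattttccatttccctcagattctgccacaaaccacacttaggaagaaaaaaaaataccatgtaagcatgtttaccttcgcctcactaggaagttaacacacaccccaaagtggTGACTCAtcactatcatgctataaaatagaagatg

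The motif reads the same on both strands. Its first base lay 46 bases before the start in Mmp3, 63 in Mmp10 and 35 in Mmp13. Of 24 members with a promoter in the RefSeq table, 6 held it in this window in any of their promoters (25.0%). The others were Adam19, Mmp7 and Plaur. Over all 32851 promoters, counted per promoter and not per gene, the share was 6.75%, so the shares are not counted alike. A match is a description of the letters and not a binding site.

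Loss of Egfr in the PSCs was the study's main question for this fraction. None of 34 members tested was called between KO and WT PSCs within co-cultures, against 0.0638% of 14107 genes, 0.0213% higher and 0.0425% lower. At an unadjusted p under 0.05 there were 4 members and 1937 genes, and DESeq2 also called 0 of the 34, against 4.27% of genes (1.86% higher and 2.4% lower). Without the co-culture block edgeR called 0 members and 0.0284% of genes, all of the latter lower (0.0284%). The median log2 difference was 0.08 over the members and 0.0046 over all genes. Mmp7, Mmp24, Timp4 and Adamts17 did not pass the filter on low counts. Leaving out each of the 12 libraries gave 0 members every time.

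Adamts12, a secreted protease of mesenchymal tissue, had the smallest p. It was at 24.5, 8.97, 19.4 and 34.4 CPM in WT libraries 20, 23, 17 and 26. Beside them, A3 had 49.2, 24.8 and 54.1 CPM and B4 had 54.0, 33.7 and 54.7 CPM with T6-LOH, T12-LOH and T69A, while C5 had 16.7 and D4 42.6 CPM. Of the KO libraries 7 of 8 were above their own WT library, and C5 was the exception. The log2 difference was 0.95 (SE 0.34), with an adjusted p of 0.289 by edgeR.

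Adam12, a membrane metalloprotease of activated fibroblasts, was at 33.8, 7.20, 25.3 and 28.1 CPM in WT libraries 20, 23, 17 and 26. A3 had 58.5, 13.7 and 39.3 CPM and B4 had 110, 53.9 and 128 CPM in the same order of organoid lines, with 24.5 CPM in C5 and 45.7 CPM in D4. Again 7 of 8 were above their own WT library, with B4 highest (log2 difference 1.34, SE 0.50, adjusted p = 0.302 by edgeR). Mmp28, or epilysin, ran from 2.95 to 10.1 CPM in WT and from 3.52 to 12.1 CPM in KO libraries (log2 difference 0.83, SE 0.35, adjusted p = 0.341 by edgeR). The groups overlapped for all 3 genes.

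Of the 6 smallest p-values, 3 belonged to members with a negative estimate, Adam8, Plau and Adamts9. Adam8, a membrane protease also made by immune cells, was at 3.70 to 8.84 CPM in WT and 2.26 to 5.18 CPM in KO PSCs (log2 difference -0.61, SE 0.27, adjusted p = 0.359 by edgeR). Plau was at 45.2, 15.7, 23.0 and 60.6 CPM in WT libraries 20, 23, 17 and 26 and 7 of 8 KO libraries were below their own WT library. Its log2 difference was -0.31 (SE 0.15, adjusted p = 0.398 by edgeR). Fap was below its own WT library in 8 of 8 KO libraries, at a median of 17.9 CPM against 28.4 CPM, with an adjusted p of 0.537 by edgeR.

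Adamts9, a proteoglycan-cutting protease, shows how far the KO lines stood from each other. It was at 28.8, 54.2, 44.8 and 35.4 CPM in WT libraries 20, 23, 17 and 26. A3 had 0.460, 0.936 and 0.330 CPM with T6-LOH, T12-LOH and T69A, B4 had 5.69, 23.9 and 12.8 CPM, and C5 had 80.6 and D4 28.8 CPM. All 3 A3 libraries were under 1 CPM and C5 was above every WT library. The pooled log2 difference of -2.13 (SE 1.03, adjusted p = 0.403 by edgeR) averages these unlike lines.

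Among 43 further protease and inhibitor genes tested in PSCs, chosen as a list of 62, none was called in either direction. The smallest p belonged to Reck, a membrane inhibitor of metalloproteinases, at 12.4 to 28.2 CPM in WT and 17.5 to 41.8 CPM in KO PSCs and not below its own WT library in any of 8. Its log2 difference was 0.53 (SE 0.13, adjusted p = 0.148 by edgeR), and the groups overlapped. Adamts14, a procollagen-trimming relative of Adamts2, was below its own WT library in 8 of 8, at a mean of 40.0 CPM in WT and 23.6 CPM in KO (adjusted p = 0.170).

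The comparison of organoids asks which genes differ in tumour cells grown beside KO PSCs. Egfr was at 84.1 to 148 CPM in organoids with WT PSCs and at 73.4 to 129 CPM with KO PSCs. Of 25 members tested, 1 was higher and 2 were lower, against 4.28% of 13939 genes higher and 6.05% lower (10.3% called in all). At an unadjusted p under 0.05 there were 13 members and 4054 of 13939 genes, and the median log2 difference was -0.25 over the 25 members and -0.01 over all genes. DESeq2 called 5 of the 25 members, against 13.7% of genes (6.23% higher and 7.5% lower), adding Adam8 and Plat, both lower. Without the co-culture block no member and no gene was called, with 1 member at an unadjusted p under 0.05. Leaving out library 12 or library 8 gave 5 members, and the share of all genes called in those fits is not given here.

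Adamts15, an ADAMTS protease that cuts proteoglycans, was the member that rose. It was at 14.0, 11.5, 2.20 and 5.39 CPM in the WT organoid libraries 6, 14, 10 and 2. With KO PSCs it was at 35.4 and 32.2 CPM in T6-LOH beside A3 and B4, 18.4 and 30.1 CPM in T6-LOH beside C5 and D4, 4.22 and 3.90 CPM in T12-LOH beside A3 and B4, and 13.3 CPM in T69A beside B4. All 7 were above their own WT library, although the groups as a whole overlapped. The log2 difference was 1.14 (SE 0.13, adjusted p = 0.00243 by edgeR), and the call was kept in 11 of 11 fits that left out 1 library.

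Mmp14, the membrane-anchored enzyme that activates pro-Mmp2, fell in the organoids. It was at 167, 198, 123 and 106 CPM in WT libraries 6, 14, 10 and 2. With KO PSCs it was at 134 and 143 CPM in T6-LOH beside PSC4 lines, 145 and 153 CPM in T6-LOH beside PSC5 lines, 110 and 115 CPM in T12-LOH and 96.4 CPM in T69A. All 7 lay below their own WT library by a small margin (log2 difference -0.25, SE 0.05, adjusted p = 0.0158 by edgeR). Without WT library 14 the adjusted p was 0.0958.

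Mmp10 also fell, from a low level. WT libraries 6, 14, 10 and 2 had 1.14, 2.34, 7.66 and 0.0442 CPM. The KO values were 0.102 and 0.854 CPM in T6-LOH beside A3 and B4, 0.439 and 0.167 CPM beside C5 and D4, 2.03 and 2.56 CPM in T12-LOH, and 0 in T69A. The T69A WT library lay near the floor at 0.0377 TPM, where the PSC share would carry at most 0.0271 TPM into an organoid library. Again 7 of 7 were below their own WT library, that T69A pair included (log2 difference -1.97, SE 0.44, adjusted p = 0.0257 by edgeR). This call was lost without any 1 of the WT libraries 14, 10 and 2 or the KO libraries 4, 11 and 15, with adjusted p up to 0.136. It was also lost without all T69A libraries.

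**Figure D2:**
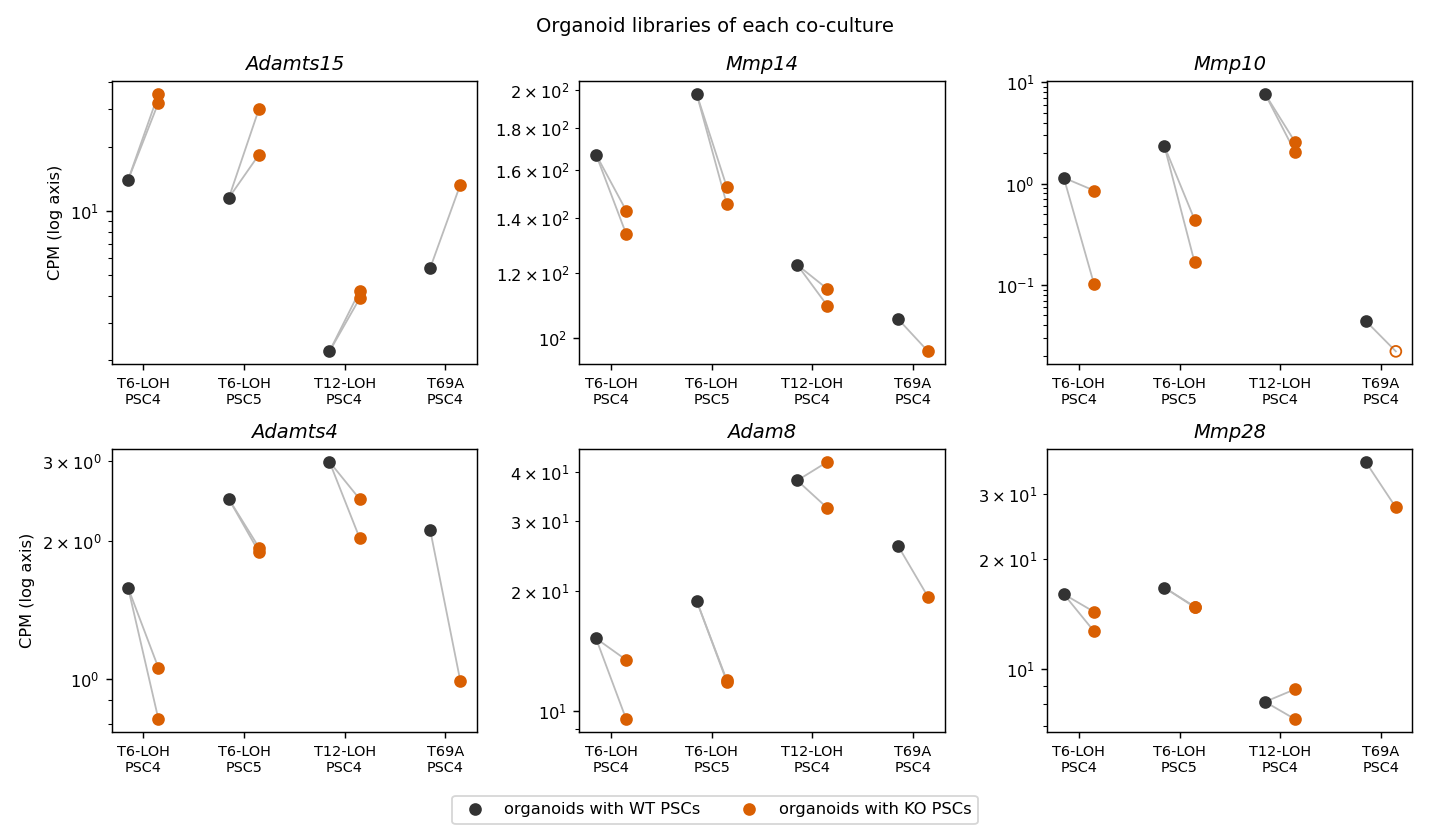
CPM on log axes of the 6 members with the smallest p in organoids, by co-culture, with a line from each organoid library grown with WT PSCs (dark) to those grown with KO PSCs (orange); an open circle marks 0 counts. Adamts15 rises along every line, and Mmp14, Mmp10 and Adamts4 decline along every line, whereas Adam8 and Mmp28 each go up in 1 T12-LOH library.

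The next members did not pass. Adamts4, an aggrecan-cutting enzyme, was at 1.58, 2.47, 2.98 and 2.12 CPM in WT libraries 6, 14, 10 and 2 and at 0.818 to 2.47 CPM with KO PSCs, below its own WT library in 7 of 7 (log2 difference -0.61, SE 0.18, adjusted p = 0.05001 by edgeR). Adam8 was at 15.2, 18.9, 38.04 and 26.1 CPM in WT and 9.51 to 42.4 CPM in KO libraries, with an adjusted p of 0.0761. Mmp28 had an adjusted p of 0.0989 and a log2 difference of -0.21. Mmp13, Mmp23 and Plat were also below their own WT library in 7 of 7, with adjusted p of 0.172, 0.118 and 0.110.

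Of 35 genes tested from the further protease list, 6 fell and 0 rose in organoids with KO PSCs. Across all 13939 genes tested, 6.05% were lower and 4.28% higher. The lysosomal proteases Ctsd (log2 difference -0.33, adjusted p = 0.0172 by edgeR) and Ctsl (-0.43, adjusted p = 0.0240) and the proprotein convertase Furin (-0.27, adjusted p = 0.0197) were below their own WT library in 7 of 7. Bsg, an inducer of metalloproteinases, and Prss22 were also among the calls.

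Some fibroblast markers and the immune marker Cd68 were also lower in organoids with KO PSCs. The fibroblast markers summed to 9.94 to 115 TPM in organoids with WT PSCs and to 4.11 to 89.9 TPM with KO PSCs, and 3 of the 6 that could be tested fell (Col1a1 by 1.45, Col3a1 by 2.74 and Vim by 1.04 on the log2 scale). Lum was at 0 in every organoid library with KO PSCs. The immune markers summed to 25.7 to 38.5 TPM with WT PSCs and to 14.8 to 26.8 TPM with KO PSCs, and 1 of 3 tested fell, Cd68, by 0.57 on the log2 scale. Cd68 alone made up most of these sums, at 24.8 to 33.5 TPM with WT PSCs and 14.6 to 24.7 TPM with KO PSCs. In both groups 2 of the 10 immune markers reached a mean of 1 TPM. The immune markers Cd3e and Tyrobp were at 0 in every organoid library, and the part of immune markers in these results was not tested. At the PSC share of each library, the PSCs of the same culture would carry at most 0.389 TPM of Mmp14, 0.0271 TPM of Mmp10 and 0.000492 TPM of Adamts15. Organoid levels were 58.4 to 131 TPM for Mmp14, 0 to 7.67 TPM for Mmp10 and 0.594 to 9.22 TPM for Adamts15. For Mmp3, whose log2 estimate in organoids was -1.66 (adjusted p = 0.0990), the highest carried level exceeded the highest measured one, as above.

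Whether KO PSCs changed the members differently in the 2 fractions was tested on all 23 libraries. None of 36 members was called, against 0.539% of 15573 genes (0.315% with a positive and 0.225% with a negative difference), with 8 members and 2459 genes at an unadjusted p under 0.05. DESeq2 called 1, Adam12, against 3.94% of genes. Without WT PSC library 26, 2 members were called, Mmp23 and Mmp28, against 345 of 15864 genes. The smallest edgeR p belonged to Adam12, with a log2 difference in PSCs minus that in organoids of 2.17 (SE 0.74, adjusted p = 0.178).

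The next 5 also had positive estimates. Mmp28 followed with 1.03 (adjusted p = 0.203), Mmp19 with 1.00 (0.220), Mmp11 with 1.03 (0.267), Mmp23 with 1.12 (0.267) and Adamts2 with 1.69 (0.278). In PSCs the WT and KO means were close for Mmp19 (133 and 134 CPM) and Adamts2 (111 and 114 CPM). Organoid libraries held only 2 to 19 counts of Mmp19 and 0 to 8 of Adamts2. For Adamts2 the PSC share would carry up to 0.0439 TPM, against at most 0.0570 TPM in organoids. Mmp11, a metalloproteinase of tumour stroma, was at 32.9, 31.8, 34.6 and 35.8 CPM in WT PSC libraries 20, 23, 17 and 26 and at 25.4 to 101 CPM in KO PSCs. In organoids it was at 3.66, 7.02, 6.03 and 4.82 CPM in WT libraries 6, 14, 10 and 2 and at 3.61 to 5.71 CPM with KO PSCs.

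The KO lines of PSC4 were then set beside their WT line over the 9 PSC4 libraries, with organoid line as a block. Each line is 1 clone name, so these values describe lines and not genotypes, and both comparisons share the 3 Rosa libraries. In A3, 3 members were higher and 1 lower of 34 tested, against 3.35% of genes higher and 4.06% lower (7.41% in all). In B4, 14 were higher and 8 lower, against 25.2 and 25% (50.2% in all). B4 against A3 gave 15 higher and 7 lower, against 24.4 and 24.6% (49% in all). DESeq2 called 8 members in A3, against 9.76% of genes, and edgeR without library 25 also called 8, against 1311 of 14437 genes. Of 10 fibroblast markers, 3 were lower in A3 than in Rosa, and in B4 3 were lower and 1 higher. Their part in the results on lines was not tested.

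A3 was marked by the Adamts9 level given above, a log2 difference from Rosa of -6.26 (SE 0.33, adjusted p = 0.000621 by edgeR). Mmp23, a membrane-tethered metalloproteinase, was at 9.16, 6.15 and 8.19 CPM in Rosa and at 19.1, 13.2 and 15.6 CPM in A3 with T6-LOH, T12-LOH and T69A. Its log2 difference was 1.03 (SE 0.09, adjusted p = 0.00148), and Adamts12 differed by 1.29 (adjusted p = 0.00463). Adamts2 differed by 0.37 (adjusted p = 0.0244) and was not called in 6 of 9 fits that left out 1 library. Mmp2 was at 38.6, 39.4 and 24.4 CPM in A3 against 104, 153 and 93.7 CPM in Rosa, without overlap, yet its adjusted p was 0.0586.

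B4 was marked by Serpine2, the protease nexin that blocks thrombin and the plasminogen activators. It was at 1.73, 0.318 and 0.994 CPM in B4 with T6-LOH, T12-LOH and T69A. Rosa had 141, 62.9 and 135 CPM and A3 had 312, 59.9 and 281 CPM. B4 lay far below both lines beside every organoid line (log2 difference from Rosa -6.90, SE 0.38, adjusted p = 9.22e-05 by edgeR). In PSC5 lines Serpine2 was at 29.1 CPM in Rosa, 174 in C5 and 142 in D4.

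Mmp3 was also low in B4, at 87.3, 326 and 330 CPM against 1194, 1998 and 2101 CPM in Rosa and 596, 1936 and 1695 CPM in A3. Its log2 difference from Rosa was -3.02 (SE 0.26, adjusted p = 0.000259 by edgeR). Adamts9 (log2 difference -1.73), Mmp13 (-1.48), Mmp10 (-1.29) and Adam8 (-1.06) were lower than in Rosa as well. The Mmp13 call was lost in 5 and the Adam8 call in 3 of 9 fits that left out 1 library. Plaur (-0.97) and Plat (-0.90) were also lower, so 3 of 5 members of the plasminogen group were lower in B4.

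Other members were higher in B4 beside every organoid line. Adam12 differed from Rosa by 2.32 (SE 0.24, adjusted p = 0.000579 by edgeR), with the values given above. Mmp11 was at 76.2, 78.8 and 101 CPM in B4 against 32.9, 31.8 and 34.6 CPM in Rosa and 41.2, 25.4 and 37.3 CPM in A3. Timp1 was at 791, 1162 and 1147 CPM in B4 against 512, 319 and 560 CPM in Rosa, a log2 difference of 1.19 (SE 0.22, adjusted p = 0.00533). Mmp23 (1.81), Mmp28 (1.61) and Adamts12 (1.51) were higher too. Adamts15, at 1.21, 2.98 and 2.42 CPM in B4 and 0.522, 0 and 0.612 CPM in Rosa, differed by 2.64 from Rosa, and its call was lost in 7 of 9 fits that left out 1 library. Mmp2, low in A3, was at 223, 111 and 232 CPM in B4, and B4 against A3 differed by 2.503 on the log2 scale (SE 0.40, adjusted p = 0.00457).

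**Figure D3:**
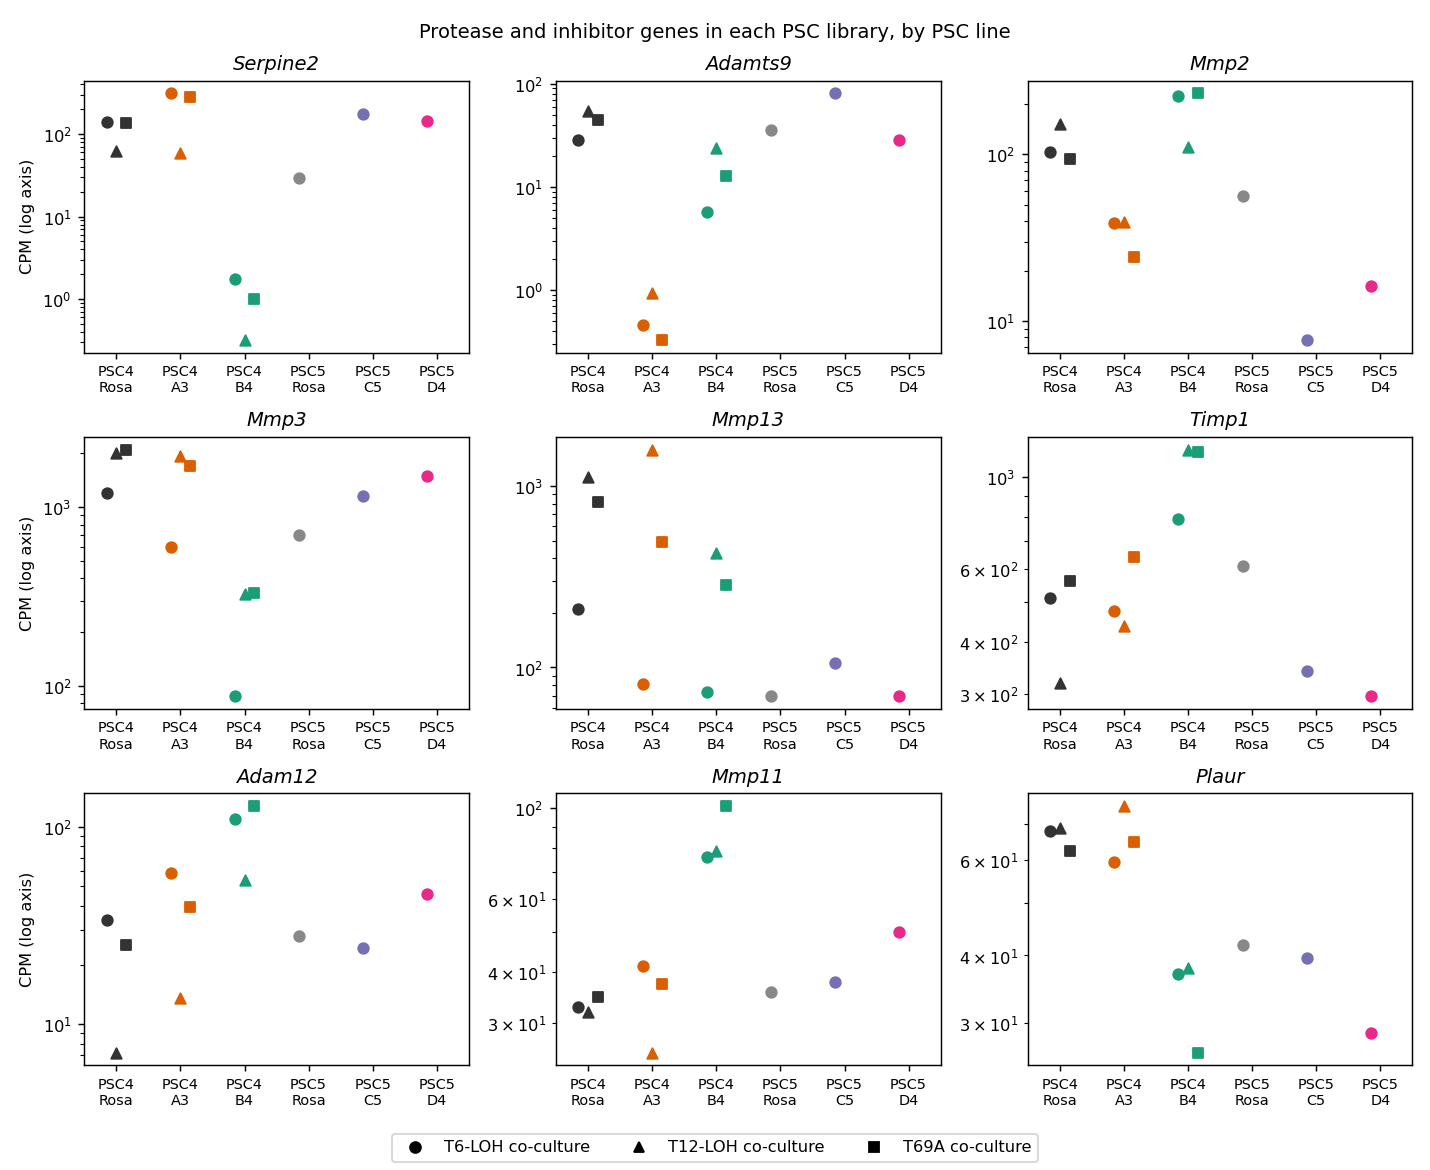
CPM on log axes of 9 members in each of the 12 PSC libraries, by PSC line on the x axis, with marker shape for the organoid line of the co-culture. Serpine2 is at 0.318 to 1.73 CPM in B4 and Adamts9 at 0.330 to 0.936 CPM in A3, while the other lines sit above these values; PSC5 lines have 1 library each.

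PSC5 lines were compared with PSC4 lines beside T6-LOH, 3 libraries against 3. None of 34 members was called, against 0.0145% of 13799 genes, with 5 members and 1735 genes at an unadjusted p under 0.05. DESeq2 called 2, Mmp9 and Adamts15, against 4.43% of genes. Mmp9, a gelatinase, was at 4.56, 2.89 and 8.29 CPM in PSC4 Rosa, A3 and B4 and at 93.8, 34.1 and 29.1 CPM in PSC5 Rosa, C5 and D4. The groups did not overlap, and edgeR gave a log2 difference of 3.11 (SE 0.57, adjusted p = 0.232). Adamts15 was at 0.522, 0.138 and 1.21 CPM in PSC4 lines and 3.35, 3.73 and 3.37 CPM in PSC5 lines.

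The KO difference in PSC5 lines minus that in PSC4 lines had 0 members called of 34 and 0% of genes called, with 5 members and 683 of 14107 genes at an unadjusted p under 0.05. DESeq2 called 2, Mmp23 and Mmp10, against 0.645% of genes. Mmp23 was at 12.9 CPM in PSC5 Rosa and at 6.67 and 7.94 CPM in C5 and D4, lower in both, and higher than its own Rosa library in all 6 PSC4 KO libraries. Mmp10 was at 7.73 CPM in PSC5 Rosa and at 23.4 and 14.3 CPM in C5 and D4, and lower than Rosa in all 6 PSC4 KO libraries. edgeR gave -2.28 (SE 0.49, adjusted p = 0.639) for Mmp23 and 2.24 (SE 0.57, adjusted p = 0.806) for Mmp10.

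The organoid line beside the PSCs went with member levels in the PSC4 lines. With T12-LOH in place of T6-LOH, 8 members were higher and 10 lower of 34, against 8.53 and 9.25% of genes (17.8% in all). Of these 18 calls, 9 were kept in all 9 fits that left out 1 library, and the count was 11 without library 21 or library 24. The 2 comparisons by organoid line share the 3 T6-LOH libraries.

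Mmp13 showed the largest difference with T12-LOH. It was at 211, 81.5 and 73.6 CPM in Rosa, A3 and B4 beside T6-LOH and at 1121, 1591 and 430 CPM beside T12-LOH, without overlap. The log2 difference was 3.10 (SE 0.41, adjusted p = 0.00843 by edgeR). T12-LOH organoids themselves had 387 to 624.6 CPM of Mmp13, and at their share of the PSC libraries they would carry at most 1.34 TPM, against 49.6 TPM or more in every PSC library. Mmp10 was at 9.23, 4.09 and 3.35 CPM beside T6-LOH and 17.5, 14.6 and 7.63 CPM beside T12-LOH (log2 difference 1.30, SE 0.17, adjusted p = 0.00319). Adamts7, which cuts cartilage oligomeric matrix protein, was at 67.6, 51.3 and 107 CPM beside T6-LOH and 234, 189 and 262 CPM beside T12-LOH (log2 difference 1.66, SE 0.11, adjusted p = 0.000348).

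Mmp3, the neighbour of Mmp10 and Mmp13 whose promoter is printed above, was also higher beside T12-LOH by 1.43 (SE 0.24, adjusted p = 0.0135 by edgeR). Its adjusted p rose to 0.0734 without library 21 and 0.0646 without library 24. Adamts9 was higher by 1.43 and Mmp9 by 1.30 on the log2 scale. The Adamts9 call was lost without library 24 (adjusted p 0.0582 by edgeR), and the Mmp9 call in 6 of 9 fits that left out 1 library.

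Beside T12-LOH 10 members were lower. Adamts2 was at 116, 171 and 146 CPM in Rosa, A3 and B4 beside T6-LOH and at 50.9, 61.6 and 63.8 CPM beside T12-LOH (log2 difference -1.29, SE 0.07, adjusted p = 0.000197 by edgeR). Adam12 was at 33.8, 58.5 and 110 CPM beside T6-LOH and 7.20, 13.7 and 53.9 CPM beside T12-LOH, a log2 difference of -1.75 (SE 0.24, adjusted p = 0.00726). Plau was at 45.2, 30.8 and 36.3 CPM beside T6-LOH and 15.7, 15.1 and 20.5 CPM beside T12-LOH (log2 difference -1.11, SE 0.15, adjusted p = 0.00391), and Plat differed by -0.77. The calls of these 4 genes were kept in 9 of 9 fits that left out 1 library. Serpine2 (-1.80), Timp3 (-1.60) and Adamts12 (-1.01) were the others among the 6 largest. Serpine2 was not called without library 21 (adjusted p 0.0756), and Timp3 not without library 20, 21, 22 or 24. Of the 10 fibroblast markers, 7 were lower and 2 higher beside T12-LOH, and their part in these results was not tested.

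With T69A in place of T6-LOH, 4 members were higher and 1 lower of 34, against 2.85 and 1.45% of genes (4.31% in all). Mmp3 was at 2101, 1695 and 330 CPM in Rosa, A3 and B4 (log2 difference from T6-LOH 1.39, SE 0.24, adjusted p = 0.0401 by edgeR). Mmp10 was at 16.0, 10.3 and 6.83 CPM (1.03, adjusted p = 0.0310), and Adamts7 (0.94) and Adamts4 (1.15) were the other higher members. Plau was lower by 0.87, and Mmp13, at 822, 494 and 284 CPM, had an adjusted p of 0.05005 and did not pass. All 5 calls were lost in at least 1 fit that left out 1 library. The count was 0 without library 17, 18, 19 or 21, 1 without library 20 or 22, and 3 without library 24. The PSC libraries of T69A co-cultures also held the largest organoid share, 0.626 to 0.921%, and its part in these results was not tested.

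**Figure D4:**
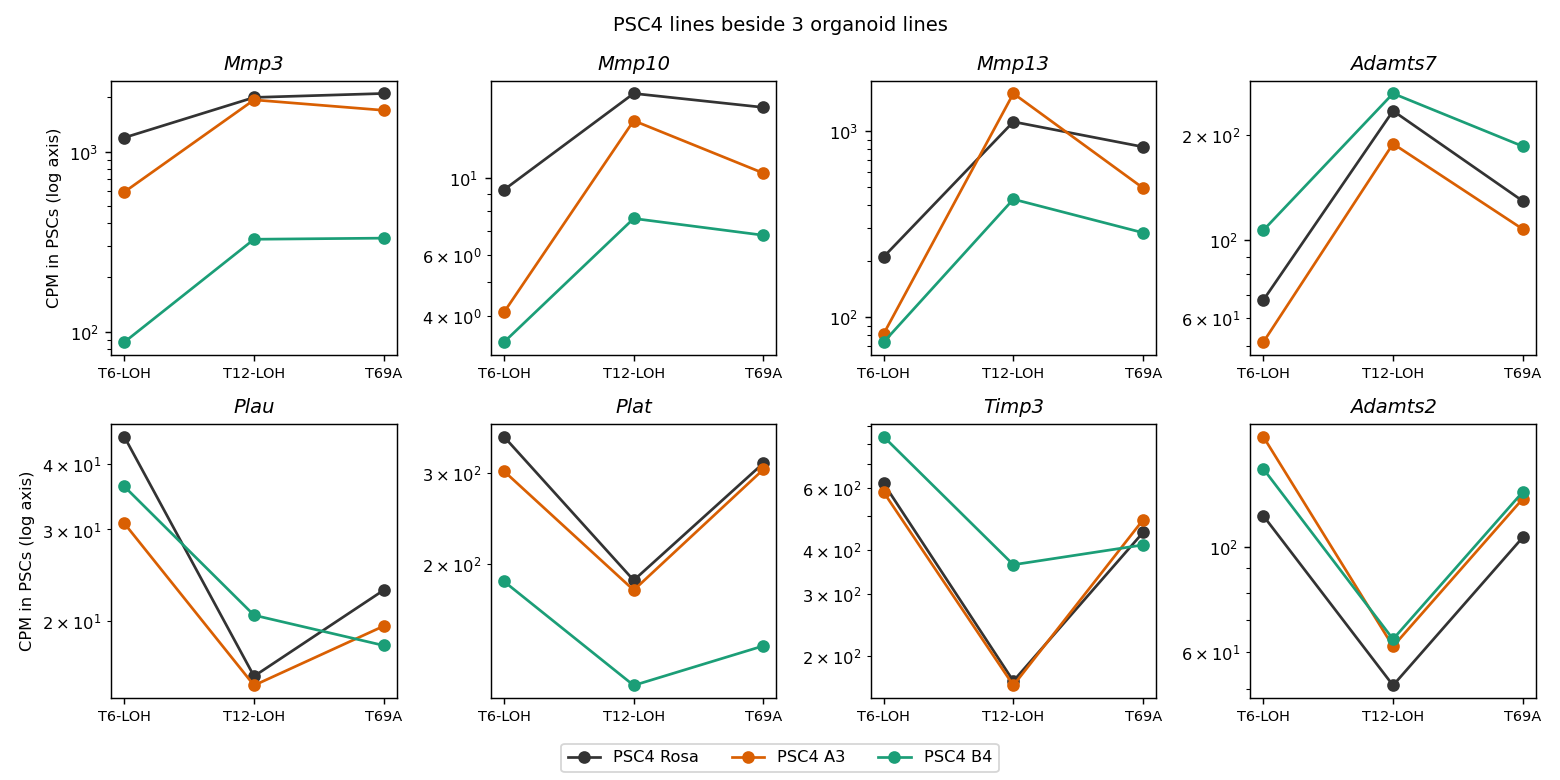
CPM on log axes of 8 members in the PSC4 lines Rosa, A3 and B4 grown beside T6-LOH, T12-LOH and T69A organoids, 1 library per point, with lines joining the libraries of 1 PSC line. Mmp3, Mmp10, Mmp13 and Adamts7 are higher beside T12-LOH than beside T6-LOH in all 3 PSC lines, and Plau, Plat, Timp3 and Adamts2 are lower.

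The organoid lines themselves were also compared, in a fit over the 11 organoid libraries with PSC genotype as a term. T12-LOH against T6-LOH gave 14 members higher and 6 lower of 29 tested, against 31.7 and 31.3% of genes (63% in all). T69A against T6-LOH gave 9 higher and 7 lower, against 26.7 and 27.1% (53.8% in all). With so many genes called in both comparisons, these counts are not read as a trait of the set. Both comparisons share the 6 T6-LOH libraries, and T69A has 2 libraries.

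Markers of other cell types differed between the organoid lines as well. In T12-LOH 4 of 7 fibroblast markers and 2 of 2 endothelial markers tested were higher, and of 4 immune markers 1 was higher and 3 lower. In T69A 4 fibroblast markers were higher and 1 lower of 7, and 3 of 4 immune markers were lower. Of the 10 epithelial markers, 3 were higher and 3 lower in T12-LOH, and 5 higher and 1 lower in T69A. Fibroblast markers summed to 62.4, 89.9 and 115 TPM in T12-LOH libraries 11, 12 and 10, to 4.55 to 24.3 TPM in T6-LOH and to 4.11 and 12.9 TPM in T69A. By the median marker, the PSC share was 0.0101, 0.0247 and 0.0899% in those T12-LOH libraries and 0 to 0.0477% in T6-LOH. Single fibroblast markers reached 4.95, 7.46 and 9.16% of their mean PSC level in the same T12-LOH libraries, and at most 1.85% in T6-LOH. The part of these markers in the results on organoid lines was not tested.

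T12-LOH organoids had most of the Mmp13. It was at 624.6, 387 and 574 CPM in libraries 10, 11 and 12 against 6.51 to 40.3 CPM in the 6 T6-LOH libraries, a log2 difference of 4.89 (SE 0.42, adjusted p = 2.51e-05 by edgeR). Adamts1, a secreted protease that cuts versican, was at 23.2, 26.0 and 24.5 CPM in T12-LOH and at 0.101 to 0.273 CPM in T6-LOH (log2 difference 6.96, SE 0.17, adjusted p = 7.85e-12). Plau was at 230, 278 and 333 CPM against 29.1 to 44.2 CPM (log2 difference 2.91). None of the 3 genes overlapped between these lines, but they were named for their large change. Adamts9 had 0 counts in all 6 T6-LOH libraries and 1.72 CPM in T12-LOH, at least 104-fold higher than the limit that 3 counts over those 6 libraries set.

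Of the 6 members lower in T12-LOH, 3 stood out by size, Mmp7, Adamts15 and Mmp15. Mmp15 was at 64.8, 51.3 and 66.3 CPM in T12-LOH and 152 to 202 CPM in T6-LOH (log2 difference -1.54, SE 0.09, adjusted p = 8.64e-09 by edgeR). Adamts15 was at 2.20 to 4.22 CPM against 11.5 to 35.4 CPM, without overlap, and differed by -2.76. Mmp7 was at 0.0355 to 0.0937 CPM in T12-LOH and 1.70 to 6.85 CPM in T6-LOH. T69A had 0 counts of Mmp7 in both libraries, so T6-LOH was at least 61.8-fold above the limit set by 3 counts over the pair.

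T69A organoids stood apart by Mmp23 and Timp3. Mmp23 was at 28.3 and 25.9 CPM in libraries 2 and 4 against 1.52 to 4.09 CPM in T6-LOH (log2 difference 3.30, SE 0.29, adjusted p = 5.29e-06 by edgeR). Timp3 was at 15.0 and 15.6 CPM against 1.32 to 3.47 CPM (log2 difference 2.53, SE 0.24, adjusted p = 2.92e-06), and Mmp28 at 36.8 and 27.6 CPM against 12.7 to 16.7 CPM. Plat was low in T69A, at 128 and 86.5 CPM against 286 to 520 CPM (log2 difference -1.98, SE 0.29, adjusted p = 0.000533). Plau was higher there than in T6-LOH, at 98.0 and 97.9 CPM. Both plasminogen activators thus differed from T6-LOH in opposite directions, and no library of the 2 lines overlapped for either.

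**Figure D5:**
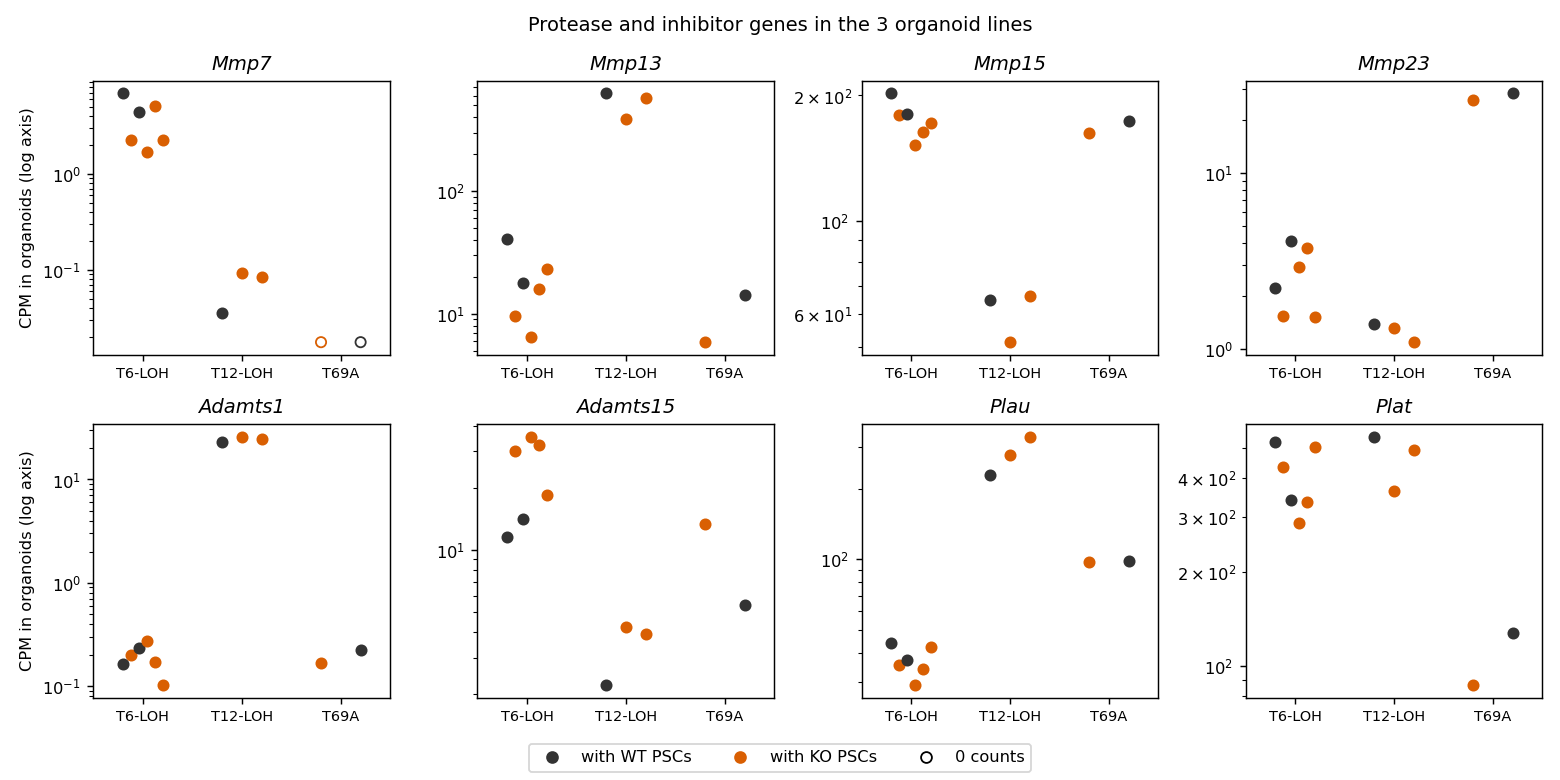
CPM on log axes of 8 members in the 11 organoid libraries, by organoid line, with WT PSCs (dark) or KO PSCs (orange) beside them and open circles for 0 counts. Mmp13, Adamts1 and Plau are highest in T12-LOH, Mmp7 in T6-LOH and Mmp23 in T69A, while Plat is lowest in T69A.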

How the data were processed

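RNA-seq tables of 23 mouse libraries were used, 12 of sorted PSCs and 11 of sorted organoids. For each transcript, the tables deposited by the authors give an estimated count, also called an expected count, and a TPM value, which corrects for transcript length. The authors made them with Salmon 1.9.0 and the builds GRCm39 and mm39 are named, per the submitters' processing notes. The transcript annotation, the library kit and its strandedness were not stated in the labels, which are the sources here.

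Both values were summed over the transcripts of each gene with the GENCODE M21 annotation, used for names only, which matched 115973 of 117135 transcripts (99.0%). Unmatched transcripts held 0.364 to 0.443% of counts and were left out. Counts rounded to whole numbers were tested with edgeR 4.0.16 (R 4.3.3) by its quasi-likelihood test after TMM scaling and filterByExpr. Benjamini-Hochberg adjustment ran over every gene tested, with a threshold of 0.05. Co-culture (organoid line with PSC parent) was a block in the knockout comparisons, and PSC line and organoid line were both terms in the comparisons of PSC4 lines. CPM are counts relative to the library size after TMM scaling within a fraction. DESeq2 1.42.0, RLE size factors, no filter on low counts, no co-culture block, no T69A libraries and leaving out each library were the alternatives. For KO PSCs, limma 3.58.1 with PSC line as a random effect and edgeR on counts summed per PSC line were also run. The counts from those fits are not given here. The scripts were tested on simulated data.

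The members and lists were chosen with earlier results of these data known. All 38 members may be named. Values are given per library for members that passed in a knockout comparison, or up to 6 with the smallest p. Elsewhere they are given for up to 6 passing members a direction with the largest change, with a mean log2 CPM of at least 1. Members named for a small p or a large change were picked on these values, so a lack of overlap adds no support. The share of all genes without overlap is not given. Up to 4 further protease genes per knockout comparison are named by smallest p. The library of T69A organoids with PSC4 A3 was not analysed here. Results of 1 further protease list gene are not reported here.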

Additional observations from a re-analysis of the deposited data

Results flagged for a closer look

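Each member that passed the filter on low counts was looked at on the scale of log2(CPM + 0.5) within each of the groups of 4 to 8 libraries. Of 118 combinations of a gene and a group, 5 were marked because 1 library lay farther from its nearest neighbour than Dixon's 95% critical value allows, and chance marks about 1 in 20. In organoids with WT PSCs, Mmp15 was at 64.8 CPM in library 10, the T12-LOH library, against 173 to 202 CPM in the other 3.

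In organoids with KO PSCs, all 4 marks fell on library 4, which was the one T69A library of that group. Mmp23 was at 25.9 CPM there against 1.09 to 3.72 CPM in the other 6 libraries. Timp3 was at 15.6 CPM against 1.80 to 3.47 CPM, and Adamts17 at 2.15 CPM against 0.406 to 0.838 CPM. Plat was low there, at 86.5 CPM against 286 to 503 CPM.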

How the results depend on the processing

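Counts of members called moved by more than 1.5 times under some settings, and the cause was not tested. Where no share of all genes is given above for a setting, its count describes only how stable the calls were. In organoids with KO PSCs the count of 3 became 5 with DESeq2, 0 with no co-culture block, and 2 to 5 leaving out 1 library. DESeq2 gave 1 in place of 0 for the difference between fractions, 8 in place of 4 for A3 against Rosa, and 2 in place of 0 both for PSC5 against PSC4 and for the KO difference between them. With no filter on low counts, T69A against T6-LOH in PSC4 lines gave 3 in place of 5.

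Leaving out each library gave 0 to 2 members for the difference between fractions, 3 to 8 for A3 against Rosa, 0 to 6 beside T69A and 11 to 23 beside T12-LOH. It gave 25 to 30 between fractions, 0 to 0 in KO PSCs, 19 to 25 for B4 against Rosa, 18 to 22 in T12-LOH organoids and 14 to 17 in T69A organoids. The KO difference between PSC5 and PSC4 could not be fitted without WT library 26.

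Of 139 calls of single members, 139 kept their direction and side of the threshold with DESeq2, 139 with RLE size factors and 129 with no filter, where 10 were lost. In fits leaving out 1 library, 1162 kept both and 138 no longer passed. No sign reversed in any of these. Replicate numbers are not shared between groups, so libraries were paired by co-culture. A fit of all cultures with both fractions, with culture as block, called 33 of 35 members between fractions in place of 29. The main fit called 56% of all genes, and the share in this larger fit is not given. Its count therefore describes only how stable the calls were. Low counts limit what can be seen of Mmp7, Mmp24 and Timp4, and the KO lines number 4.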
